A study of Homo sapiens with 6 samples.

Results

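The antioxidant and NRF2-linked enzymes are 37 genes, chosen by name, whose products regulate the NRF2 response or remove superoxide, peroxides and reactive electrophiles. All 37 were among the 44591 genes listed for each library, and 33 of them passed the filter on low counts that left 16222 genes for testing. RNA came from A2780, an established human ovarian cancer cell line, labelled wild type and grown in DMEM with fetal bovine serum. The study compared 3 untreated libraries with 3 libraries of cells given 40 ng/ml recombinant human CRMP2 (r-CRMP2) for 48 h, to look for pathways that the protein changes in cancer cells. CRMP2 is a microtubule-associated protein, released in this study's setting by cancer associated fibroblasts. The labels name no vehicle or control protein for the untreated cells, and a single cell line was used. Polyadenylated RNA was sequenced, and the counts of a library summed to between 21888530 and 25711353.

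NRF2, encoded by NFE2L2, is the transcription factor that switches on antioxidant and detoxifying genes. In unstressed cells the adaptor KEAP1 hands NRF2 to the CUL3 ubiquitin ligase for destruction. Oxidants and electrophiles modify KEAP1, and NRF2 then accumulates, pairs with a small MAF protein (MAFF, MAFG or MAFK) and binds antioxidant response elements in its target genes, where BACH1 competes with it as a repressor. The enzymes it controls feed the glutathione and thioredoxin systems, both of which draw their reducing power from NADPH.

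The core of the antioxidant response element, TGACNNNGC, was searched on both strands of the RefSeq promoter windows (GRCh38.p14), which run from 250 bases before a gene's start to 50 bases after it. Windows were found for 31 of the 37 members, and 5 of these (16.1%) held the motif, against 3702 of 27305 promoters of all genes (13.6%). The 5 were GCLM, TXNRD1, GSTP1, GPX2 and GSTM1. Below are the sites of the 3 that were tested, because their RNA was called in both directions with TMM scaling (defined below). GCLM and TXNRD1 were lower and GSTP1 was higher by a small step. The GSTP1 call was lost in 4 of the 6 fits without 1 library and was not made with library size alone. The capitals mark the motif, which reads on the gene's own strand in TXNRD1 and GSTP1 and on the opposite strand in GCLM. TXNRD1 held another match at its start, which is not shown.
GCLM, chr1:93909436-93909484, minus strand: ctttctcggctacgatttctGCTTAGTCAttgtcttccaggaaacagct
TXNRD1, chr12:104215660-104215708, plus strand: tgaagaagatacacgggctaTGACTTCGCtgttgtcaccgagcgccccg
GSTP1, chr11:67583726-67583774, plus strand: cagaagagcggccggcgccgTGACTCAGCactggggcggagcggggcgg
The motif ended 26 bases before the start of GCLM, 91 bases before that of TXNRD1 and 58 bases before that of GSTP1. A match is a description of letters in this window, and elements farther from a gene's start were not searched.

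The members moved in both directions. Of the 33 tested, 11 were higher and 9 lower in r-CRMP2 libraries at an adjusted p-value threshold of 0.05 (edgeR's quasi-likelihood test, Benjamini-Hochberg adjustment over all 16222 genes tested), and 13 were not called. The 11 higher members were 33.3% of those tested, against 28.2% of all genes tested, and the 9 lower ones were 27.3%, against 30.1%, so the share of members called was close to that of all genes. The 3 libraries of a group lay wholly above the other group for 11 members and wholly below it for 10, against 30.9% and 33.3% of all genes. None passed a log2 fold change of 1, a step that 5.12% of all genes passed upward and 8.86% downward. The median log2 fold change was -0.02 over the 33 members and -0.03 over all genes tested, and the members ranged from -0.84 for TXNRD1 to 0.88 for SOD2. In bulk RNA, less RNA per cell and fewer cells holding it cannot be told apart.

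The scaling of the libraries matters for changes of this size. TMM normalization, used here, corrects each library total for genes that take an unequal share of it, and its factors lay between 1.10 and 1.12 in untreated and between 0.878 and 0.922 in r-CRMP2 libraries. With library size alone, the median of all genes tested moved from -0.03 to -0.34, 20 members (60.6%) were lower and 4 (12.1%) higher, against 52.1% and 13.4% of all genes tested. These 4 were SOD2, PRDX4, PRDX2 and GPX4, and all 9 members that were lower with TMM were lower there too. The other 11 lower ones, not called with TMM, were KEAP1, GCLC, GSS, GPX8, GSTM3, MGST1, TXN, TXN2, TXNRD2, PRDX1 and PRDX3. CPM values below are counts scaled to a common library total with TMM, whereas the deposited TPM values, which also divide by gene length, carry no such factor.

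**Figure D1:**
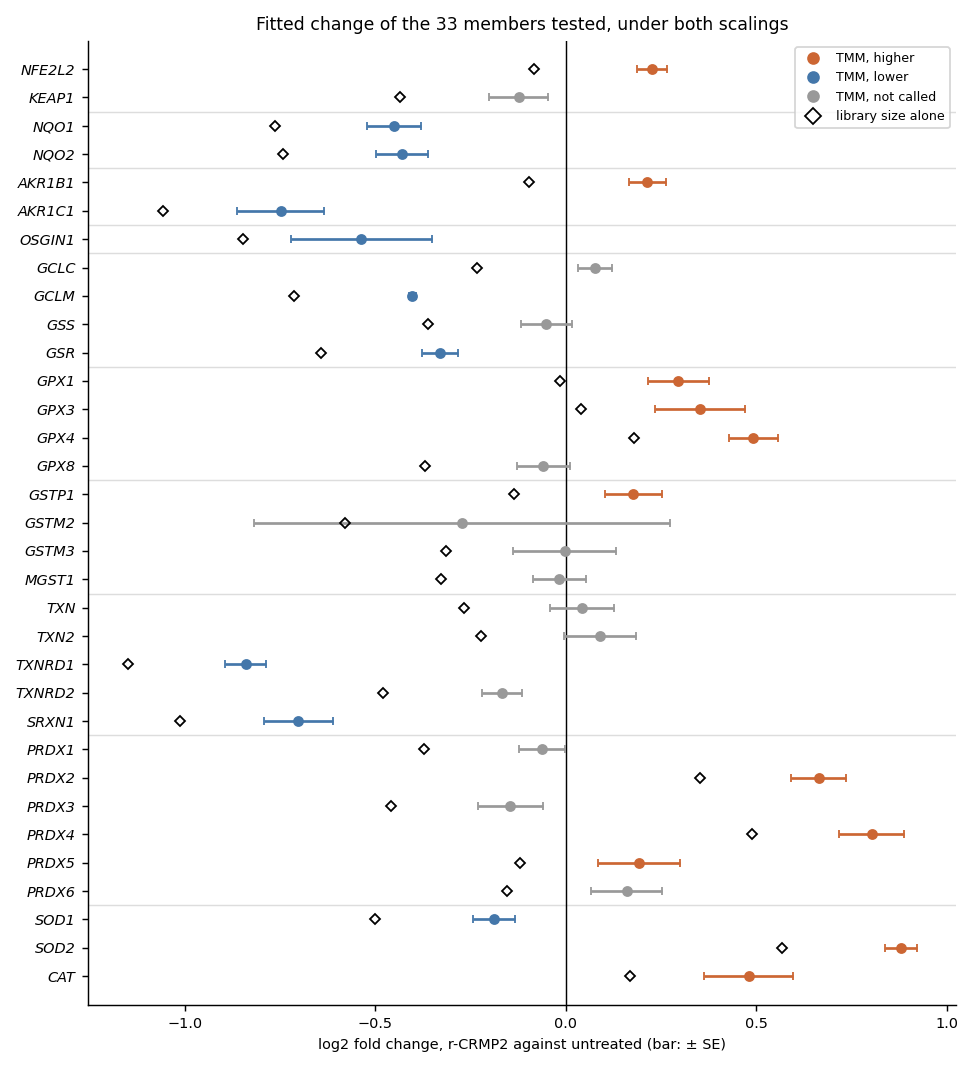
Fitted log2 fold change of the 33 members tested (horizontal axis, r-CRMP2 against untreated), by role from top to bottom. Filled circles with ± SE bars use TMM and are coloured by call, and open diamonds use library size alone. The diamonds sit about 0.3 to the left of the circles, and SOD2, PRDX4, PRDX2 and GPX4 were called higher under both scalings.

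Of the pair of regulators, NFE2L2 was called with TMM and KEAP1 was not, and with library size alone the reverse held. NFE2L2 (chromosome 2, 178095031 to 178129859 in the deposited hg19 coordinates) had 83.2, 83.7 and 88.2 CPM in the untreated libraries and 103, 96.1 and 99.4 CPM in the r-CRMP2 libraries. The groups did not overlap, and NFE2L2 rose with TMM (log2 fold change 0.23, SE 0.04, adjusted p = 0.00416 from edgeR) but read -0.08 with library size alone (adjusted p = 0.268 from edgeR), so its direction rests on the scaling. KEAP1 had 58.9 ± 4.22 CPM in untreated and 54 ± 3.26 CPM in r-CRMP2 libraries (SD, n = 3 in each group). Its groups overlapped, and its log2 fold change of -0.12 was not called with TMM (adjusted p = 0.155 from edgeR), whereas with library size alone it read -0.44 and was lower (adjusted p = 8.93e-05 from edgeR).

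The largest fall among the members was that of TXNRD1, the cytosolic thioredoxin reductase, a selenoprotein that passes electrons from NADPH to thioredoxin. TXNRD1 (chromosome 12, 104609557 to 104744085) had 559, 557 and 566 CPM in untreated cells against 325, 290 and 323 CPM with r-CRMP2. The lowest untreated library lay far above the highest treated one, and TXNRD1 fell by 44.2% (log2 fold change -0.84, SE 0.05, adjusted p = 1.67e-09 from edgeR). Its substrate thioredoxin, TXN, had overlapping groups and was not called (0.04, adjusted p = 0.621 from edgeR). The mitochondrial pair of these genes was not called with TMM either, with log2 fold changes of 0.09 for TXN2 and -0.17 for TXNRD2, whose groups nevertheless did not overlap. With library size alone TXN (-0.27), TXN2 (-0.22) and TXNRD2 (-0.48) were each lower (adjusted p = 0.00157, 0.0223 and 5.33e-05 from edgeR). SRXN1, sulfiredoxin, which restores peroxiredoxins that have been over-oxidized, had 42.1, 47.5 and 43.3 CPM in untreated and 29.6, 27.2 and 24.8 CPM in treated libraries. All 3 treated libraries were below all untreated ones, and SRXN1 fell by 38.6% (log2 fold change -0.70, SE 0.09, adjusted p = 5.77e-07 from edgeR). In GENCODE transcripts, 84.5% of the 100-base stretches of SRXN1 also occur in AL121758.1, so reads of the pair may not be told apart.

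Both quinone reductases fell together. NQO1, which reduces quinones by 2 electrons and is widely used as a readout of NRF2 activity, had 257, 246 and 258 CPM in untreated and 176, 203 and 178 CPM in r-CRMP2 libraries. The groups were well apart, and NQO1 (chromosome 16, 69743304 to 69760571) fell by 0.45 on the log2 scale (SE 0.07, adjusted p = 9.14e-06 from edgeR). NQO2, its relative, had 79.9, 82.8 and 85.8 CPM before and 59.6, 66.8 and 58 CPM with treatment. This was a change of -0.43 on the log2 scale (SE 0.07, adjusted p = 2.54e-05 from edgeR), almost that of NQO1.

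The aldo-keto reductases, which reduce reactive carbonyls and steroids, split. AKR1C1 had 13.3, 10.9 and 11.6 CPM in untreated against 6.37, 7.48 and 7.49 CPM in treated libraries, with no overlap. It fell by 0.75 on the log2 scale (SE 0.11, adjusted p = 4.1e-05 from edgeR). However, 16.5% of its 100-base stretches are shared with AKR1C2, so some reads of the pair may not be told apart. AKR1B1, which reduces glucose to sorbitol as well as toxic aldehydes, rose with TMM (0.21, SE 0.05, adjusted p = 0.00601 from edgeR) and read -0.10 with library size alone. OSGIN1, an NRF2 target linked to growth inhibition, had 4.17, 6.11 and 4.17 CPM against 3.46, 3.18 and 3.27 CPM. The groups did not overlap, untreated replicate 2 was the highest library, and the call for OSGIN1 (-0.54, SE 0.18, adjusted p = 0.0184 from edgeR) was lost without it (-0.33, adjusted p = 0.162 from edgeR) and without r-CRMP2 replicate 3 (-0.52, adjusted p = 0.0518 from edgeR).

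**Figure D2:**
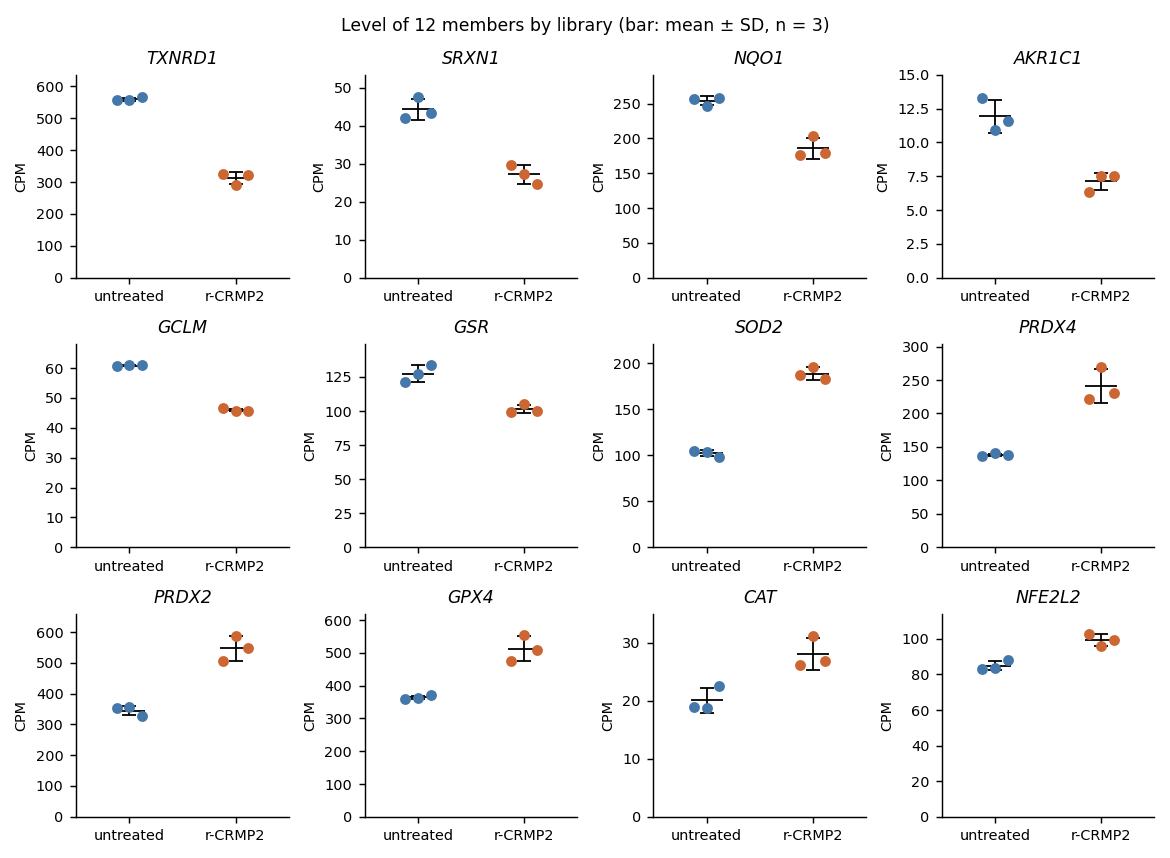
CPM (TMM-scaled, vertical axes from 0) of 12 members in each of the 3 untreated and 3 r-CRMP2 libraries. Points are libraries and bars are the mean ± SD; the first 6 panels hold members that fell and the last 6 members that rose, and the groups are apart in each, with NFE2L2 the smallest step and turned to -0.08 with library size alone.

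With TMM, glutathione supply changed at some steps and not at others. Glutamate-cysteine ligase, which makes the first and rate-limiting step of glutathione synthesis, has a catalytic subunit, GCLC, and a modifier subunit, GCLM, that raises its efficiency. GCLM had 60.5, 61 and 60.9 CPM in untreated and 46.5, 45.7 and 45.7 CPM in r-CRMP2 libraries. GCLM fell by 0.40 on the log2 scale (SE 0.01, adjusted p = 2.57e-05 from edgeR). Its SE was the smallest among the members tested, but it rests on 3 libraries in each group and may understate the spread. GCLC had 43.2 ± 0.703 CPM untreated and 45.6 ± 2.35 CPM treated (SD, n = 3 in each group) and was not called, though its groups did not overlap (0.08, adjusted p = 0.359 from edgeR). Glutathione synthetase, GSS, was not called (-0.05, adjusted p = 0.544 from edgeR). GSR, the reductase that recycles oxidized glutathione with NADPH, had 122, 127 and 134 CPM against 99.1, 105 and 100.2 CPM. The groups did not overlap, and GSR fell by 0.33 on the log2 scale (SE 0.05, adjusted p = 0.00016 from edgeR). With library size alone GCLM (-0.71), GSR (-0.64), GCLC (-0.23) and GSS (-0.36) were each lower (adjusted p = 8.52e-08, 1.35e-07, 0.0116 and 0.000123 from edgeR).

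Of the 4 glutathione peroxidases tested, 3 were higher with TMM, and GPX4 was the one called with library size alone too. GPX4, the selenoprotein that reduces lipid hydroperoxides in membranes and guards against ferroptosis, had 360, 364 and 371 CPM in untreated and 477, 554 and 508 CPM in treated libraries. All treated libraries were above all untreated ones, a rise of 40.7% (log2 fold change 0.49, SE 0.06, adjusted p = 2.61e-06 from edgeR). GPX4 (chromosome 19, 1103925 to 1106788) kept its call with library size alone (0.18, adjusted p = 0.00946 from edgeR). GPX1, the abundant cytosolic enzyme, rose with TMM (0.30, adjusted p = 0.00104 from edgeR) and read -0.02 with library size alone. GPX3, the secreted enzyme, had 20.2, 23.4 and 19.7 CPM against 24.8, 30.3 and 25.6 CPM (0.35, SE 0.12, adjusted p = 0.00365 from edgeR), and kept only its sign with library size alone (0.04, adjusted p = 0.734 from edgeR). GPX8, which works in the endoplasmic reticulum, was not called (-0.06). GPX2, an epithelial enzyme of the gut, and GPX7, another endoplasmic reticulum enzyme, were under the filter, with 1 to 5 and 2 to 7 counts per library.

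The glutathione transferases, which attach glutathione to electrophiles, gave 1 call among 4 tested. GSTP1 was among the most abundant members and was called higher by a small step (0.18, adjusted p = 0.0295 from edgeR). That call was lost without any 1 of the 3 untreated libraries, without r-CRMP2 replicate 2, with no low-count filter (0.17, adjusted p = 0.0588 from edgeR) and in the fit with a replicate block (0.17, adjusted p = 0.0507 from edgeR), and the value read -0.14 with library size alone. MGST1 in microsomal membranes (-0.02), GSTM3 (-0.0028) and GSTM2 (-0.27, SE 0.55) were not called. GSTM2 rested on 5 to 22 counts per library, and it shares 9.74% of its 100-base stretches with GSTM1. GSTM1 was under the filter, with 3, 3 and 2 counts in untreated libraries and 0 in each treated library, too few for a comparison.

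Most peroxiredoxins reduce hydrogen peroxide with electrons from thioredoxin, and of the 6 members PRDX4 and PRDX2 were higher under both scalings. PRDX4, the peroxiredoxin of the endoplasmic reticulum, whose reaction also helps proteins to fold, had 137, 140 and 137 CPM in untreated and 222, 269 and 231 CPM in treated libraries. The groups were far apart, and PRDX4 (chromosome X, 23685645 to 23704514) rose by 74.4% (log2 fold change 0.80, SE 0.09, adjusted p = 1.4e-08 from edgeR). PRDX2, a cytosolic enzyme, had 353, 356 and 327 CPM against 506, 586 and 549 CPM. It rose by 58.4% (log2 fold change 0.66, SE 0.07, adjusted p = 8.44e-08 from edgeR), and neither call depended on the scaling (0.49 for PRDX4 and 0.35 for PRDX2 with library size alone). PRDX1, the other major cytosolic enzyme, had overlapping groups (-0.06, adjusted p = 0.427 from edgeR), as did mitochondrial PRDX3 (-0.15, adjusted p = 0.0847 from edgeR) and PRDX6 (0.16, adjusted p = 0.064 from edgeR). With library size alone PRDX1 (-0.37) and PRDX3 (-0.46) were lower (adjusted p = 1.33e-05 and 1.14e-05 from edgeR), and PRDX3 was also lower without r-CRMP2 replicate 2 (-0.22, adjusted p = 0.00577 from edgeR). PRDX5 was called (0.19, adjusted p = 0.039 from edgeR) with overlapping groups. It lost the call without untreated replicate 2, untreated replicate 3 or r-CRMP2 replicate 2 (adjusted p between 0.0967 and 0.195 from edgeR) and read -0.12 with library size alone. As for antisense partners, 16.7% of the 100-base stretches of PRDX1 match MMACHC on the opposite strand, as 11.1% of those of NQO1 match AC092115.2 and 6.66% of those of SOD2 match ACAT2, whose reads could be counted with these genes if strand was not used.

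The superoxide dismutases moved apart. SOD2, the manganese enzyme of the mitochondrial matrix, had 105, 104 and 98.5 CPM in untreated and 187, 196 and 182 CPM in r-CRMP2 libraries. This was the largest rise among the members, 84% (log2 fold change 0.88, SE 0.04, adjusted p = 6.25e-10 from edgeR), and SOD2 (chromosome 6, 160100096 to 160183561) read 0.57 with library size alone. SOD1, the copper and zinc enzyme of the cytosol, had 98.8, 95.1 and 99.5 CPM against 83.3, 92 and 82.2 CPM. The groups did not overlap, and SOD1 fell by 12.3% (-0.19, SE 0.05, adjusted p = 0.0173 from edgeR) but it lost this call without untreated replicate 3 and without r-CRMP2 replicates 1 and 3 (adjusted p between 0.0653 and 0.105 from edgeR). Catalase, CAT, which breaks down hydrogen peroxide in peroxisomes, had 19, 18.7 and 22.6 CPM in untreated and 26.1, 31.2 and 26.9 CPM in treated libraries. CAT rose with TMM (0.48, SE 0.12, adjusted p = 0.000245 from edgeR) and read 0.17 with library size alone (adjusted p = 0.138 from edgeR). Extracellular SOD3 was under the filter, with 0 to 3 counts per library.

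The grouping by compartment here is not complete, since members found only partly in a compartment were not counted with it. Of the members placed here in mitochondria, SOD2 and PRDX5 were higher with TMM, while PRDX3, TXN2 and TXNRD2 were not called. With library size alone SOD2 was higher, these 3 were lower, and PRDX5 turned to -0.12 and was not called. In the endoplasmic reticulum, PRDX4 rose under both scalings and GPX7 was under the filter. GPX8 was not called with TMM but was lower with library size alone (-0.37, adjusted p = 0.00281 from edgeR). The same held for MGST1 of microsomal membranes (-0.33, adjusted p = 0.000462 from edgeR). Of the 6 selenoproteins among the members, TXNRD1 fell and GPX4, GPX1 and GPX3 rose with TMM. With library size alone GPX1 turned to -0.02 and GPX3 read 0.04, and neither was called. TXNRD2 was not called with TMM, and GPX2 was under the filter.

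Levels were compared between members on the deposited TPM scale. In untreated cells PRDX1 (835 ± 20.4 TPM) and PRDX2 (811 ± 38.4 TPM) were the most abundant, and their order differed between libraries. GPX4 (634 ± 16.4 TPM) and GSTP1 (606 ± 12.9 TPM) came next, with GPX4 above GSTP1 in each library, and then TXN (498 ± 21.8 TPM; SD, n = 3 for each). With r-CRMP2, PRDX2 was first (1023 ± 31.3 TPM), followed by GPX4 (709.7 ± 20.7 TPM) and PRDX1 (638 ± 11.8 TPM; SD, n = 3 for each). TXNRD1 moved from place 10 of 37 to place 14 (296 ± 5.11 to 132 ± 14.2 TPM), and PRDX4 from place 7 to place 5 (365 ± 10.4 to 507 ± 29.2 TPM). The 37 members together summed to 6678 ± 35.6 TPM in untreated and 6104 ± 166 TPM in r-CRMP2 libraries (SD, n = 3 in each group). This direction rests on the scaling, since with TMM their CPM summed to 4388 ± 35.6 and 4658 ± 282 (SD, n = 3 in each group).

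**Figure D3:**
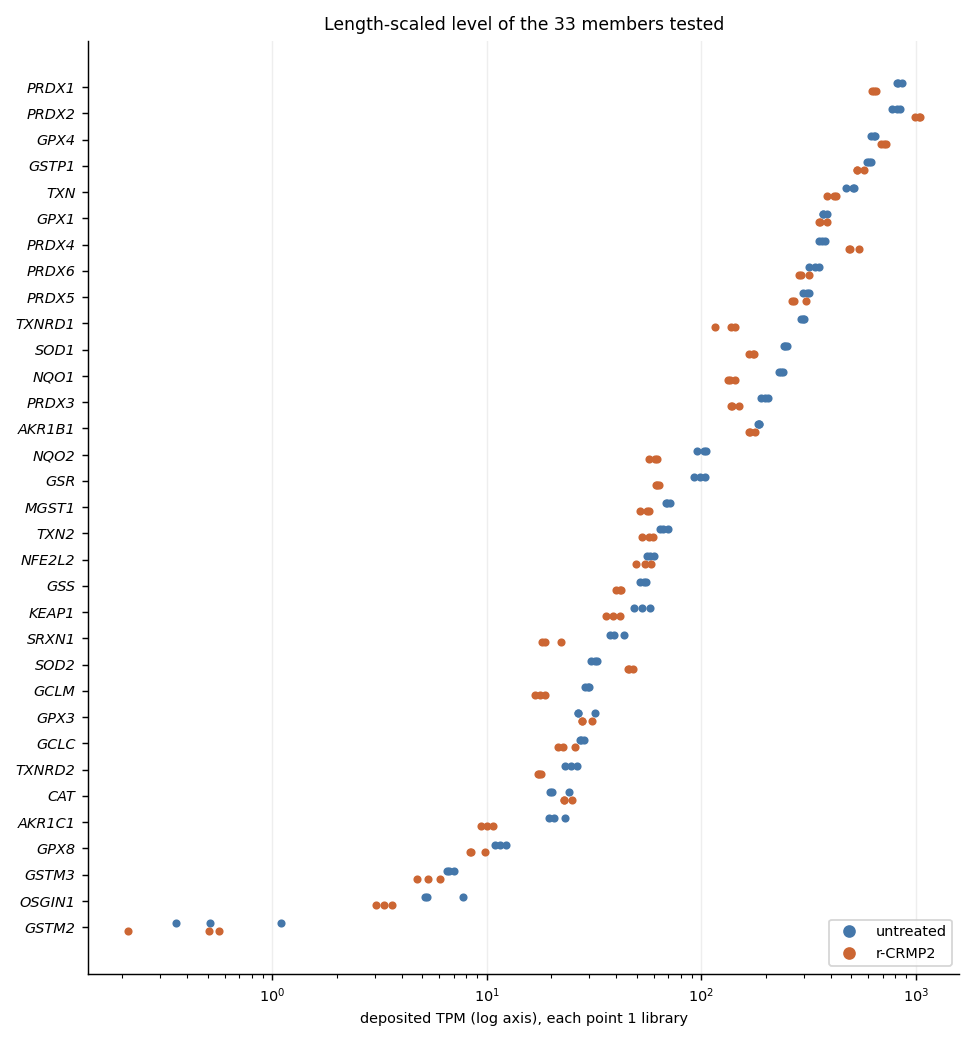
Deposited TPM of the 33 members tested (log axis), ordered by their mean in untreated libraries; each point is 1 library. PRDX1 and PRDX2 lead in untreated cells, PRDX2 leads with r-CRMP2, and TXNRD1 drops from 296 to 132 TPM.

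The ratio of a pair of genes within a library does not depend on how libraries are scaled. These 9 ratios were picked after the values were seen, so they are given as a description. GCLM per GCLC was 1.06, 1.05 and 1.08 in untreated and 0.727, 0.776 and 0.783 in r-CRMP2 libraries, so the modifier subunit was lower relative to the catalytic one. TXNRD1 per TXN was 0.571, 0.63 and 0.586 against 0.343, 0.273 and 0.358. SRXN1 per PRDX1 was 0.048 ± 0.00475 against 0.0308 ± 0.00365 (SD, n = 3 in each group). Reductase and sulfiredoxin were thus lower relative to the thioredoxin and peroxiredoxin on which they act. SOD2 per SOD1 was 0.13, 0.134 and 0.121 in untreated and 0.275, 0.261 and 0.271 in treated libraries, and PRDX2 per PRDX1 was 0.971 ± 0.0559 against 1.6 ± 0.0506. PRDX4 per PRDX1 was 0.438 ± 0.0226 against 0.795 ± 0.0325, and KEAP1 per NFE2L2 was 0.919 ± 0.0731 against 0.721 ± 0.0501 (SD, n = 3 in each group). MAFK per NFE2L2 was 1 ± 0.148 against 3.56 ± 0.49 and BACH1 per NFE2L2 0.272 ± 0.0256 against 0.542 ± 0.0425, so the partner and the repressor of NRF2 were both higher relative to its own RNA. The groups did not overlap in any of the 9 ratios, but their choice after the values were seen favours this. The share of other gene pairs whose ratios separate was not counted.

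**Figure D4:**
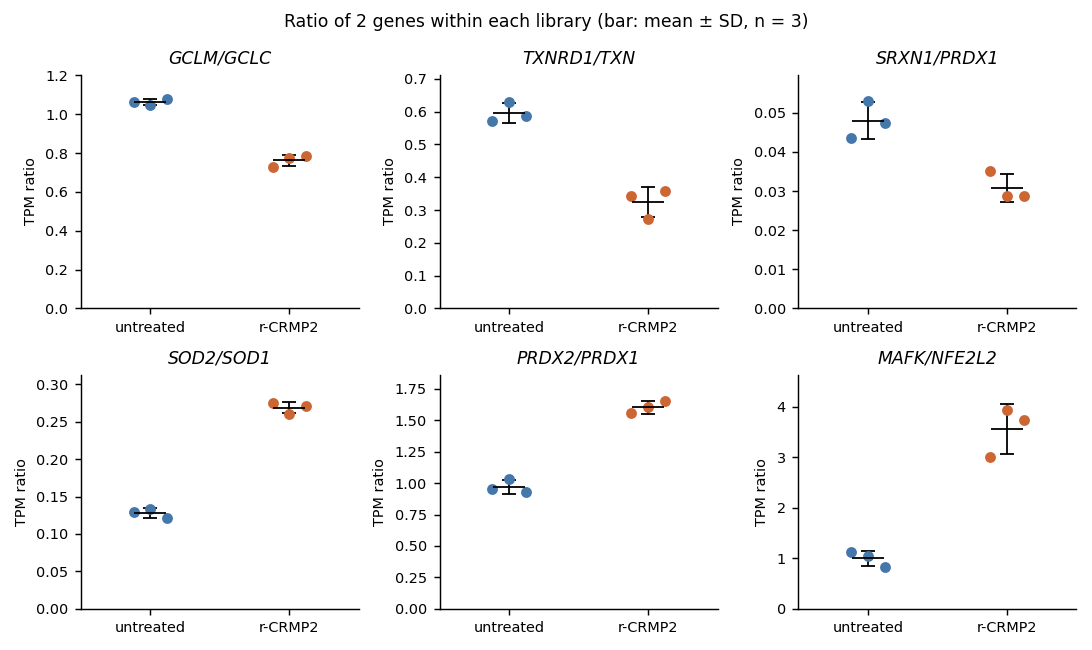
Ratio of deposited TPM of 2 genes within each library (vertical axes from 0), for 6 of the 9 ratios. Points are the 3 untreated and 3 r-CRMP2 libraries and bars are the mean ± SD. GCLM per GCLC falls from 1.06 to 0.762 and SOD2 per SOD1 rises from 0.128 to 0.269. The ratios were picked after the values were seen.

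Among NRF2 partners outside the 37 members, MAFK, MAFF and BACH1 rose past a log2 fold change of 1. Of 16 regulators and partners, 6 were higher and 6 lower (median log2 fold change -0.02; 4 and 9 with library size alone), which is 37.5% each way against 28.2% and 30.1% of all genes with TMM and 25% and 56.3% against 13.4% and 52.1% with library size alone. Of the 16, 3 passed a log2 fold change of 1 upward and 1 downward with TMM, against 5.12% and 8.86% of all genes tested. MAFK, a small MAF protein, had 87, 81.9 and 68.8 CPM in untreated and 289, 354 and 346 CPM in r-CRMP2 libraries (2.06, SE 0.14, adjusted p = 9.61e-13 from edgeR). MAFF had 19.4, 18.6 and 17.5 CPM against 62.6, 77.1 and 71.1 CPM (1.92, SE 0.10, adjusted p = 1.21e-12 from edgeR). BACH1, the repressor that shares their binding sites, had 46.9, 44.7 and 41.3 CPM against 101, 96.4 and 113 CPM (1.22, SE 0.09, adjusted p = 8.25e-11 from edgeR). The groups of each were far apart, and all 3 were higher with library size alone too (1.75, 1.61 and 0.91). BTRC, a ubiquitin ligase subunit that also targets NRF2, was lower (-1.25, SE 0.12, adjusted p = 1.68e-08 from edgeR), and on the opposite strand 15.9% of the 100-base stretches of MAFK match TMEM184A.

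Of 29 other NRF2 targets tested, 14 were lower and 6 higher, with a median log2 fold change of -0.28 (23 lower and 2 higher with library size alone). The lower ones were 48.3% with TMM and 79.3% with library size alone, against 30.1% and 52.1% of all genes tested, and the higher ones 20.7% and 6.9%, against 28.2% and 13.4%. This list, like the other pathway lists, was written by hand with earlier results of these data known, so its shares are given as a description. SLC7A11, the cystine importer that supplies cysteine for glutathione, had 54.7, 62.3 and 62 CPM in untreated and 25.2, 17.1 and 20.9 CPM in treated libraries (-1.50, SE 0.17, adjusted p = 4.83e-10 from edgeR). TRIM16L fell by 1.55 on the log2 scale (SE 0.05, adjusted p = 9.61e-13 from edgeR) and shares 18.5% of its 100-base stretches with TRIM16. The aldo-keto reductases AKR1C2 (-2.07), AKR1C3 (-1.04) and AKR1B10 (-1.05) were lower (adjusted p = 7.4e-05, 6.8e-07 and 0.00184 from edgeR), as AKR1C1 was. AKR1C2 shares 22.1% of its 100-base stretches with AKR1C1, so their falls may not be separate. It had 33 to 66 counts in untreated and 8 to 15 in treated libraries, and AKR1B10 had 59 to 76 and 20 to 33. FTH1, the ferritin heavy chain that stores iron, rose (1.08, SE 0.08, adjusted p = 3.72e-10 from edgeR), and 41.5% of its 100-base stretches match BEST1 on the opposite strand. HMOX1, which degrades heme and is repressed by BACH1, had 80.6, 109 and 105 CPM against 128, 153 and 142 CPM (0.52, SE 0.16, adjusted p = 7.16e-05 from edgeR), and its call was lost with library size alone (0.21, adjusted p = 0.0604 from edgeR).

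**Figure D5:**
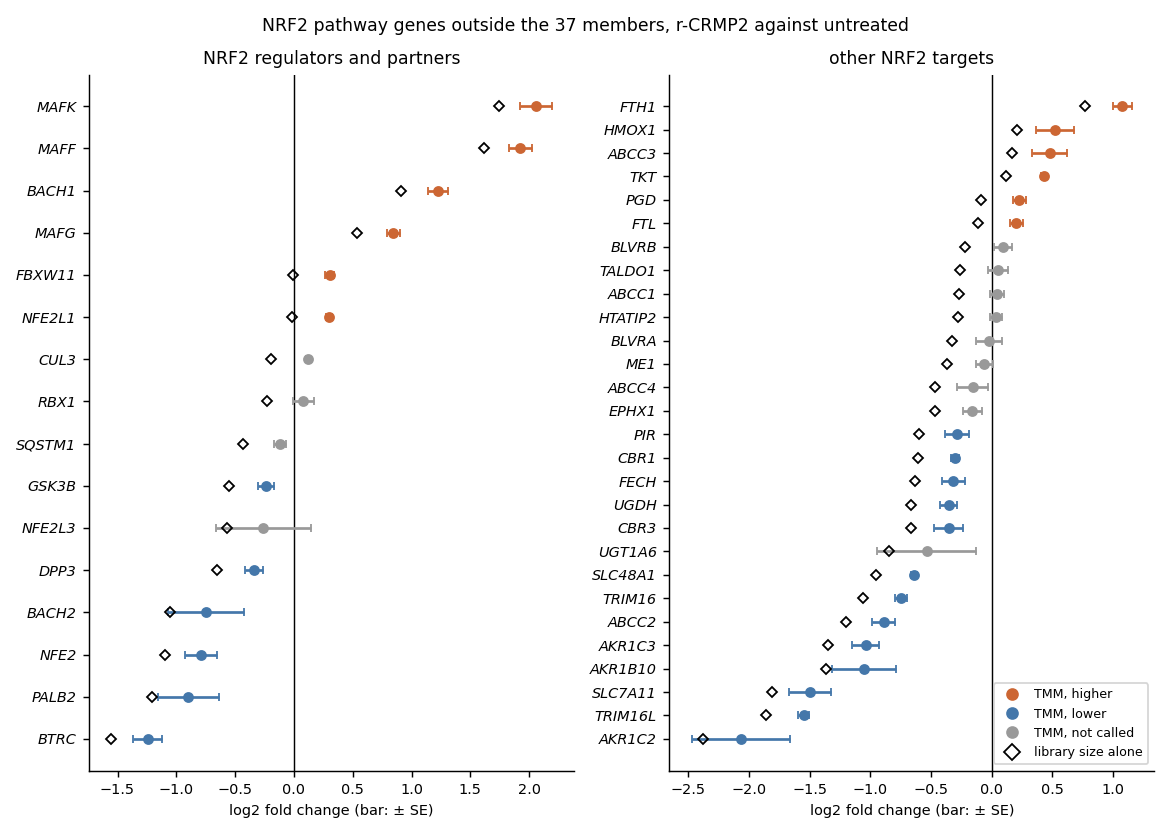
Log2 fold change (r-CRMP2 against untreated) of 16 NRF2 regulators and partners and of other NRF2 targets, without 1 target that is not reported here. Filled circles with ± SE bars use TMM and are coloured by call, and open diamonds use library size alone. MAFK, MAFF and BACH1 lie highest among the partners under both scalings, and FTH1 lies highest and AKR1C2 lowest among the targets.

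The other pathway lists were counted in the same way, and their counts stand against the same shares of all genes, 28.2% higher and 30.1% lower with TMM and 13.4% higher and 52.1% lower with library size alone. Of 8 genes of selenoprotein synthesis, 4 were lower and none higher (7 lower with library size alone), among them SEPHS2, which makes the selenium donor (-1.45, SE 0.10, adjusted p = 6.81e-11 from edgeR), and SCLY, which recovers selenium from selenocysteine (-1.28, SE 0.15, adjusted p = 3.18e-08 from edgeR). For SCLY, 17.2% of the 100-base stretches occur in the readthrough UBE2F-SCLY. Among 19 glutaredoxins, methionine sulfoxide reductases and related genes, 9 were higher and 3 lower (3 and 8 with library size alone), and none passed a log2 fold change of 1. TXNIP, which binds and inhibits thioredoxin, had 242, 253 and 249.9 CPM against 510, 538 and 432 CPM (0.99, SE 0.10, adjusted p = 1.41e-09 from edgeR). Of 11 other glutathione transferases, 4 were higher and 2 lower (none and 5 with library size alone), none past a log2 fold change of 1. Of 11 NADPH oxidases and genes of NADPH supply tested, 3 were higher and 2 lower (2 and 7 with library size alone). IDH1, the cytosolic NADPH-making isocitrate dehydrogenase, was lower (-1.19, SE 0.06, adjusted p = 4.67e-11 from edgeR).

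The labelled cell type was checked against markers. The 8 epithelial ovarian cancer markers summed to between 3323 and 3431 TPM in untreated and between 2821 and 3073 TPM in r-CRMP2 libraries, nearly all of it from the keratins KRT8 and KRT18. With TMM, KRT8 was not called (0.03; lower at -0.28 with library size alone), KRT18 was higher (0.20, adjusted p = 0.011 from edgeR; -0.11 with library size alone) and MUC16 was lower (-0.36, adjusted p = 0.0133 from edgeR), while EPCAM (0.32) and KRT19 (0.11) were not called. PAX8 was low (2.44 and 1.8 TPM on average), and WT1 and CDH1 were under the filter. The 9 fibroblast markers summed to between 228 and 268 TPM and between 160 and 172 TPM, led by COL1A1, with FAP under the filter. With TMM, COL1A1 (-0.41) and PDGFRB (-0.41) were lower, and COL1A2 (0.35), LUM (0.53) and PDGFRA (0.46) were higher, though none of these 3 was called with library size alone. The 3 leukocyte markers summed to between 28 and 33.3 TPM and between 77.5 and 78.4 TPM, nearly all from CD68 (1.69, SE 0.09, adjusted p = 3.01e-12 from edgeR), with PTPRC at 0 to 4 counts per library. The 3 erythroid markers were between 0 and 1.07 TPM in sum. The part of these shifts in the results was not tested.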

How the data were processed

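Polyadenylated RNA of 6 A2780 libraries, 3 untreated and 3 r-CRMP2, was sequenced. The authors deposited raw counts per gene and TPM values for each library. The submitters' processing notes name FastQC, HISAT2, DESeq2 and the build hg19. The counting tool, the annotation and the use of strand are not given in the sources used here. The groups were fitted in R 4.3.3 by quasi-likelihood in edgeR 4.0.16 (limma 3.58.1), after TMM scaling and filterByExpr. Calls used an adjusted p-value threshold of 0.05 (Benjamini-Hochberg), and the study's log2 fold change threshold of 1 was counted apart. Each SE was computed from the libraries' log2 CPM with a prior count of 2, not from the fit. All 37 members are named, and from 6 pathway lists the genes past both thresholds, at most 6 a list by size, plus HMOX1, SLC7A11, TXNIP and 1 gene that is not reported here. KRT8, KRT18, CD68 and the other markers are from lists of cell type markers. The members and lists were chosen with earlier results of these data known.

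Libraries of 1 group differed by more than counting noise (chi-square per degree of freedom between 3.62 and 10.3), so none was merged. Nothing says that they came from separate cultures, and the p-values then measure the spread between these libraries. Shared sequence was searched as 100-base stretches in GENCODE 29 transcripts. The alternatives were RLE size factors, library size alone, DESeq2 1.42.0, omitting the low-count filter, a minimum of 10 counts per library, the replicate block, each library left out, and a required fold change of 1.2. The edgeR step was tested on simulated data in which as many genes rose as fell. Those data held no shift of library composition between the groups, so that test does not bear on the choice of scaling.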

Additional observations from a re-analysis of the deposited data

How the results depend on the processing

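The counts of 11 higher and 9 lower members became 4 and 20 with library size alone, where 13.4% of all genes tested were higher and 52.1% lower. There 3 members (TXNRD1, AKR1C1 and SRXN1) were lower past a log2 fold change of 1, against 0 with TMM. The share of all genes past that step with library size alone was not counted, so these 3 are given as a description. Requiring a fold change of 1.2 in the test, 5 members were higher and 6 lower, and the share of all genes called in that test was not counted either. When each of the 6 libraries was left out in turn, 9 to 12 members were higher and 7 to 10 lower (25.1% to 27.1% and 26.1% to 27.9% of all genes), and the median log2 fold change ran from -0.0748 to 0.0753. The main median of -0.02 became -0.33 with library size alone. With library size alone the direction turned for NFE2L2 (-0.0841), AKR1B1 (-0.10), GCLC (-0.23), GPX1 (-0.0162), GSTP1 (-0.14), TXN (-0.27), TXN2 (-0.22), PRDX5 (-0.12) and PRDX6 (-0.15), and the calls of GPX3 and CAT were lost. Among the members that turned, GCLC, TXN and TXN2 were then called lower, as were KEAP1, GSS, GPX8, GSTM3, MGST1, TXNRD2, PRDX1 and PRDX3. PRDX6 gained a call with RLE and DESeq2 (0.18 in both) and without r-CRMP2 replicate 1, and PRDX3 without r-CRMP2 replicate 2. With at least 10 counts PRDX5 lost its call (0.18) and TXNRD2 gained one (-0.18), and without the filter GSTP1 lost its call. MGST1 and GSTM3, which were not called, turned to 0.0032 and 0.0173 with RLE size factors and to 0.0033 and 0.0182 with DESeq2. In the fits without 1 library, the sign turned for GSTM2 (-0.57 to 0.28), GSTM3 (-0.13 to 0.10), MGST1 (-0.0748 to 0.0359), TXN (-0.0175 to 0.0986) and GSS (-0.0904 to 0.0098), none of them called.

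The replicate numbers gave no pairing, with correlations of the deviations of same-numbered libraries of -0.02, 0.0038 and -0.03 across genes. With the replicate number as a block, 10 members were higher and 9 lower, against 27.5% and 29.4% of all genes tested. The members' median was -0.02, and GSTP1 was the call lost. GSTM2 and the 4 members not tested had at most 22 counts per library.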
